A study of Mus musculus with 4 samples.

Results

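RNA of oxidative phosphorylation genes was measured by sequencing cells sorted from the corpus callosum, the white matter tract that joins the cerebral hemispheres. Members were the protein-coding genes whose mouse symbols begin with Ndufa, Ndufb, Ndufc, Ndufs or Ndufv and a digit, with Uqcr, with Cox4 to Cox8 or with Atp5, the genes Sdha to Sdhd, and the protein genes of the mitochondrial genome. Of 52636 genes in the files, 97 were members, 84 encoded in the nucleus and 13 in the mitochondria. All mice carried the genotype Mertk_KO, a loss of a receptor through which phagocytes take up dying cells, and all had eaten 0.2% cuprizone for 4 weeks. The groups were AnnexinV-positive cells, which the series calls dying, and AnnexinV-negative cells, which it calls living, with 2 libraries each. Annexin V binds phosphatidylserine on the outside of dying cells. No library of untreated or wild-type mice was analysed here, so the libraries measure neither the effect of cuprizone nor that of the genotype. The labels used here give neither an age nor whether replicates were separate or pooled animals. All p-values below therefore rest on the spread between these libraries, which may be technical.

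In oxidative phosphorylation, complexes I and II pass electrons from NADH and succinate to ubiquinone, complex III passes them on to cytochrome c, and complex IV, cytochrome c oxidase, hands them to oxygen. Complexes I, III and IV pump protons across the inner mitochondrial membrane, and complex V, the ATP synthase, uses their return to make ATP. Subunits come from both genomes, except in complex II, which is wholly nuclear. Complex IV holds copper in its mitochondrially encoded subunits mt-Co1 and mt-Co2. Cuprizone chelates copper, lowers the activity of this enzyme, and kills oligodendrocytes, the cells that make myelin.

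The libraries held 43.2 to 67.4 M reads in genes, as recovered from the deposited RPKM (reads per kilobase of gene, scaled by depth), and in a gene of 1 kb each read added 0.00833 to 0.0116 to the RPKM. The cell types differed between the groups. Of 14 tested markers of microglia, the brain's own macrophages, 14 were higher in AnnexinV-positive cells, and their summed RPKM was 6070 and 6200 against 2362 and 2875. Mature oligodendrocyte markers were lower in 15 of 15 (summed RPKM 104 and 88.2 against 1193 and 660). Lower calls were also made for 5 of 6 tested precursor markers, 7 of 9 of astrocytes, 5 of 7 of endothelial cells, 4 of 5 of mural cells and 2 of 3 of neurons. Several markers called lower, such as Mog and Gjb1 of oligodendrocytes, met the RPKM minimum for a test only in AnnexinV-negative libraries. The precursor sums were 19.2 and 16.8 against 159 and 125, and those of astrocytes 36.7 and 57.0 against 121 and 85.4. None of 4 ependymal or choroid plexus markers was called, and their sum followed the replicate number, at 399 and 59.0 against 375 and 20.9. No listed marker was at 0 in any library. In bulk RNA, fewer cells of a type and less RNA per cell cannot be told apart, and the part of cell type in the differences below was not tested.

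The members had about the same median shift as all genes tested, and few of them passed the test. Among the 89 members with an RPKM of at least 1 in at least 2 libraries, 7 were higher in AnnexinV-positive cells (the subunits mt-Nd5, mt-Nd6, Ndufa1, Sdhd, Uqcrb and Cox6a2 and the supercomplex factor Cox7a2l), and 1, Ndufa4l2, was lower (limma on log2(RPKM + 0.1), Benjamini-Hochberg adjusted p under 0.05 over 10927 genes). That was 8.99% of the members tested, where 40% of all genes tested were called (30.8% higher and 9.26% lower). The median log2 fold change was 0.44 over the members and 0.45 over all genes tested, and 83 of the 89 members lay above 0. The median standard error was 0.30 for the members and 0.23 for all genes. The groups did not overlap in 34 members, 33 of them with both AnnexinV-positive libraries on top (37.1%, against 60.9% of all genes) and 1 with both below (14.9% of all genes). When each library was centred on the median deviation of all genes, 0 members were higher and 1 was lower, where 6.53% and 11.9% of all genes were called (18.4% in either direction). With each library scaled to 1 sum (TPM), 0 were higher and 3 lower (Ndufa4l2, Ndufv1 and Ndufs1), against 1.03% and 19.1% (20.2% in either direction). With libraries centred on the microglia markers, 0 were higher and 15 lower, where 0.101% and 51.1% of all genes were (51.2% in either direction). At an unadjusted limma p under 0.05, the counts higher were 15 as deposited, 1 when centred, 0 as TPM and 0 when centred on microglia markers, and those lower were 1, 2, 12 and 26. The median log2 fold change of the members was 0.02 when centred and -0.33 as TPM, beside 0.02 and -0.32 over all genes.

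**Figure D1:**
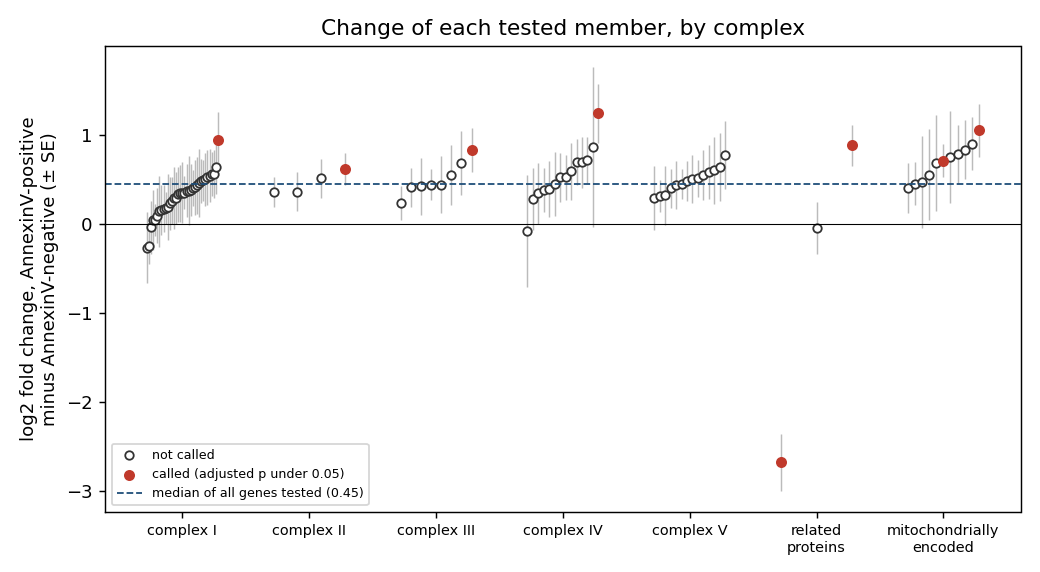
Each point is the log2 fold change of 1 tested member on the deposited scale, AnnexinV-positive minus AnnexinV-negative (vertical axis, bars ± SE from limma, 2 libraries a group), grouped by complex, with related proteins that belong to no complex and mitochondrially encoded genes apart. Filled points were called. Most open points lie near the dashed line at 0.45, the median of all genes tested; on the TPM scale that median was -0.32 and no member was higher.

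Expression of the 13 mitochondrially encoded subunits fell into separate ranges along the mitochondrial genome. mt-Nd1, mt-Nd2, mt-Nd4, mt-Nd5 and mt-Nd6 of complex I, mt-Cytb of complex III and mt-Co1 of complex IV were at an RPKM of 39.996 to 447 in every library. The remaining 6 genes, which lie next to each other between mt-Co1 and mt-Nd4, were at 0.208 to 4.69: mt-Co2 and mt-Co3 of complex IV, mt-Atp6 and mt-Atp8 of complex V, and mt-Nd3 and mt-Nd4l of complex I. Of these 6, mt-Nd3 and mt-Nd4l did not reach the RPKM minimum. Mitochondrial mRNAs are cut from long transcripts that hold many genes.

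The 6 low genes lie in a stretch of the mitochondrial genome that has a copy in the nucleus. GENCODE vM21 annotates a row of unprocessed pseudogenes on chromosome 1, from Gm28439 to Gm29216 (chr1:24611535-24616197, minus strand, GRCm38), that runs over it. In 50-base steps, 100% of the coding sequence of mt-Co2, 99.9% of mt-Co3, 99.5% of mt-Atp6, 98.8% of mt-Nd4l and 98% of mt-Nd3 also occurred in another annotated transcript. The share was 62.2% for mt-Nd4, of which bases 1 to 876 of 1378 match Gm28439, and 51.1% for mt-Co1, of which bases 1067 to 1545 match Gm29216. Of the 1496 steps of mt-Co1, 765 were shared, 430 of them with Gm29216 and the rest with other genes only. Lower shares were 8.19% for mt-Nd2, 7.61% for mt-Nd5 and 0% for mt-Nd1, mt-Nd6 and mt-Cytb. For mt-Atp8 no annotated transcript held a copy (0%), although it lies inside the stretch. The following 90 bases of mt-Co2 (chrM:7043-7132, plus strand) and of the pseudogene Gm28661 (chr1:24615446-24615535, minus strand), from the GENCODE vM21 transcripts, show the identity; a base that differed would be in capitals, and 0 do.
mt-Co2: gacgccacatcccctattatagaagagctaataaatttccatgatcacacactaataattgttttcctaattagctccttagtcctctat
Gm28661: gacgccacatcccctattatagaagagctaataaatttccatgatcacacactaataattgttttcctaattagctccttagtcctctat
The 7 pseudogenes of the row were themselves at an RPKM of 0.200 to 4.72, the same range as the 6 low mitochondrial genes. How reads that match several places were counted is not given in the sources used here, so the levels of these 6 genes, and of parts of mt-Co1 and mt-Nd4, are uncertain.

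**Figure D2:**
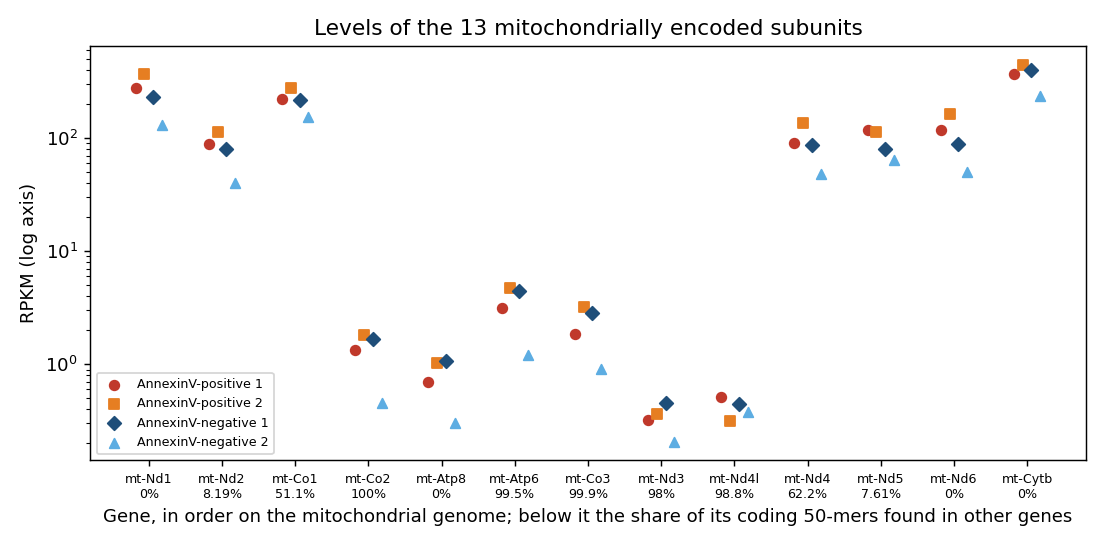
RPKM (log axis) of the 13 mitochondrially encoded subunits in each of the 4 libraries, in their order along the mitochondrial genome, with the share of each gene's coding 50-base steps found in other annotated transcripts below its name. The 6 genes from mt-Co2 to mt-Nd4l lie between 0.208 and 4.69 and the other 7 between 39.996 and 447.

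Among the well-read mitochondrial genes, the 5 of complex I had log2 fold changes of 0.71 to 1.05, and those of complexes III and IV were at 0.40 and 0.45; this difference was not tested. mt-Nd6, the only protein gene on the other strand (chrM:13552-14070, minus strand), was at an RPKM of 118 and 163 in AnnexinV-positive and 89.1 and 50.6 in AnnexinV-negative cells. The groups did not overlap, and its log2 fold change was 1.05 (SE 0.30, limma adjusted p 0.0323). The library kit keeps no strand, so reads from RNA of either strand may be counted in mt-Nd6. mt-Nd5 (chrM:11742-13565, plus strand), which shares 14 bases of exon with it, was at 119.2 and 115 against 80.1 and 64.0, without overlap (0.71, SE 0.19, limma adjusted p 0.0262). Both rises were on the deposited scale: on the TPM scale mt-Nd6 was at 0.27 and mt-Nd5 turned to -0.07, and both fell below 0 when libraries were centred on microglia markers (-0.19 and -0.53).

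mt-Nd1, which forms part of the membrane arm of complex I, was at 279 and 373 against 230 and 130. It did not pass the test, by a small margin (0.90, SE 0.30, limma adjusted p 0.0527). mt-Nd2 was at 89.3 and 113 against 80.3 and 39.996 (log2 fold change 0.83), and mt-Nd4 at 91.5 and 136 against 88.0 and 47.9 (0.78), and neither passed. In these genes the lower AnnexinV-positive library stood above the higher AnnexinV-negative one, and AnnexinV-negative 2 was far below the other 3. mt-Cytb was at 371 and 447 against 402 and 237, and its groups overlapped (0.40, SE 0.28). mt-Co1, which holds the oxygen-binding site of complex IV, was at 224 and 280 against 218 and 153 (0.45, SE 0.24, limma adjusted p 0.163). All 13 genes together took 0.649% and 0.752% of the summed RPKM in AnnexinV-positive and 0.976% and 0.602% in AnnexinV-negative cells, so the share overlapped between the groups. This share carries the uncertainty, given above, in the levels of the genes with nuclear copies.

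Complex I, NADH dehydrogenase, had 35 nuclear members, all of which were tested. Ndufa1 alone was called, and the median log2 fold change was 0.35, below the 0.45 of all genes. Ndufa1, an accessory subunit of the membrane arm encoded on the X chromosome (chrX:37187588-37191163), was at an RPKM of 68.4 and 108 against 57.0 and 34.8. The groups were close but apart (0.94, SE 0.31, limma adjusted p 0.0471; 0.17 on the TPM scale and -0.29 when centred on microglia markers). The most expressed members were Ndufa2, at 63.1 and 106 against 64.9 and 42.3, Ndufa1, and Ndufa3, at 39.6 and 66.3 against 52.9 and 26.2. In Ndufa2 and Ndufa3 the groups overlapped, with AnnexinV-positive 2 highest and AnnexinV-negative 2 lowest.

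The 7 nuclear core subunits of complex I, among them those that carry its flavin and iron-sulphur clusters, had a median log2 fold change of 0.17, and the 28 accessory subunits had 0.36. Ndufv1, which binds NADH and the flavin, was at 17.0 and 18.6 against 24.3 and 18.5, with overlap (-0.25, SE 0.20, limma adjusted p 0.335). On the TPM scale its log2 fold change was -1.03 (limma adjusted p 0.0108). Ndufv2, its partner with an iron-sulphur cluster, was at 11.98 and 18.1 against 19.3 and 11.8 (-0.04, SE 0.30). Ndufs1, the largest core subunit, stood at nearly the same RPKM in all 4 libraries, 10.4 and 9.45 against 9.57 and 9.64 (0.04, SE 0.18), and at -0.73 on the TPM scale (limma adjusted p 0.0347). Ndufs1, Ndufv1 and Ndufv2 form the module that takes electrons from NADH. Ndufs1 and Ndufv2 were named after their values were seen. Among the other core subunits, Ndufs7 and Ndufs8 hold iron-sulphur clusters on the way to ubiquinone: Ndufs7 was at 29.02 and 41.6 against 37.5 and 25.4 (0.17, SE 0.26) and Ndufs8 at 25.97 and 36.7 against 25.8 and 18.9 (0.48, SE 0.25). Ndufs3, a core subunit of the same arm, was at 7.88 and 10.3 against 7.43 and 5.46 (0.49, SE 0.23). Of these 3, Ndufs3 and Ndufs8 had both AnnexinV-positive libraries on top, and none passed. Among accessory subunits, Ndufs4 was at 9.21 and 12.9 against 11.0 and 6.41, Ndufs6 at 12.2 and 25.0 against 21.7 and 11.7, and Ndufv3 at 11.3 and 17.3 against 11.2 and 7.91. Their levels within a group differed by more than the group means of Ndufs4 and Ndufs6 did. The member with the lowest fold change, Ndufb4, was at 0.781 and 1.46 against 1.80 and 0.946 (-0.27, SE 0.40), and 100% of its coding sequence also occurred in other annotated transcripts.

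Complex II, succinate dehydrogenase, was the most precisely measured complex, with a median standard error of 0.20. Its 4 members had a median log2 fold change of 0.44, and Sdhd was called. Sdhd, a membrane anchor that binds ubiquinone (chr9:50596357-50603812), was at 35.3 and 41.2 against 26.3 and 23.7, without overlap (0.61, SE 0.18, limma adjusted p 0.0356), but at -0.17 on the TPM scale and -0.62 when centred on microglia markers. Sdha, the flavoprotein that oxidises succinate, was at 41.9 and 38.3 against 30.9 and 31.5. Its groups were apart by more than the spread within either, yet it did not pass (0.36, SE 0.17, limma adjusted p 0.129). Sdhb, the iron-sulphur subunit, was at 49.7 and 61.9 against 45.5 and 33.1 (0.51, SE 0.22). Sdhc, the other anchor, was at 11.3 and 13.7 against 11.3 and 8.20, with the lower AnnexinV-positive and the higher AnnexinV-negative library level with each other (0.36, SE 0.22).

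Complex III, the cytochrome bc1 complex, had 8 nuclear members with a median of 0.44, of which Uqcrb was called. Uqcrb, a small subunit near the ubiquinone site (chr13:66900617-66905378), was at 13.3 and 17.3 against 10.4 and 6.87, without overlap (0.83, SE 0.25, limma adjusted p 0.0390; 0.06 on the TPM scale and -0.40 when centred on microglia markers). Other annotated transcripts, among them the processed pseudogene Gm16089, held 73.2% of its coding sequence. The core proteins were steadier: Uqcrc1 was at 52.5 and 57.6 against 42.2 and 38.7 (0.44, SE 0.17, limma adjusted p 0.0798), and Uqcrc2 at 17.1 and 19.9 against 16.9 and 14.5 (0.23, SE 0.19). Uqcrfs1, the Rieske iron-sulphur protein, was at 27.0 and 30.8 against 25.6 and 18.4 (0.41, SE 0.22). The small subunits Uqcr10, Uqcr11 and Uqcrh had log2 fold changes of 0.55, 0.68 and 0.44 with standard errors of 0.32 to 0.36, and their groups overlapped.

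Complex IV, whose copper centres cuprizone is known to affect, had 18 nuclear members, and 14 of them were tested. Their median log2 fold change was 0.52, the highest of the nuclear complexes, and 1 of 14 was called, Cox6a2. Several of the widely expressed subunits were among the most abundant members. Cox4i1, which takes part in regulation by ATP, was at 158 and 242 against 137 and 103, without overlap (0.72, SE 0.26, limma adjusted p 0.0666). Cox6a1 was at 157 and 228.2 against 165 and 106, with overlap (0.52, SE 0.28). Cox8a was at 116 and 166 against 102 and 72.5 (0.69, SE 0.26), and Cox6b1 at 85.9 and 138 against 82.2 and 55.8 (0.69, SE 0.29); in both the groups were apart by less than the spread within either, and neither passed. Cox7b was at 20.4 and 31.2 against 22.1 and 12.6, and Cox7a2 at 36.2 and 60.7 against 52.8 and 28.3, both with overlap. Cox5a, which binds beside Cox4i1, was at 30.1 and 44.3 against 29.7 and 21.9 (0.52, SE 0.25). Cox5b, which holds zinc, and Cox7c were read at 2.36 to 5.37 in all libraries, and 43.5% and 82.2% of their coding sequences occurred in other annotated transcripts. Ndufa4, first purified with complex I and now placed in complex IV, was at 43.1 and 67.7 against 53.7 and 31.6 (0.39, SE 0.32).

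Several complex IV subunits have a second form known from restricted tissues, and these forms did not move together. Cox6a2, the heart and muscle form of Cox6a1 (chr7:128205435-128206387), was at 11.8 and 22.2 against 5.69 and 8.13. Both AnnexinV-positive libraries were higher (1.24, SE 0.33, limma adjusted p 0.0249), and the ratio of Cox6a2 to Cox6a1 inside each library was 0.0748 and 0.0975 against 0.0345 and 0.0764, with overlap. Cox6a2 was at 0.47 on the TPM scale and at 0.00 when centred on microglia markers, and passed on neither. It shares 70 exon bases with Itgad.

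Cox4i2, the form of Cox4i1 known from lung and from pericytes, was below the RPKM minimum and had no test. It was at 0.0513 and 0.118, from 4 and 8 reads, in AnnexinV-positive and at 0.961 and 0.642, from 91 and 49 reads, in AnnexinV-negative cells, and both AnnexinV-positive libraries were lower. The ratio of Cox4i2 to Cox4i1 was 3.25e-04 and 4.87e-04 against 0.00702 and 0.00622. Cox7a1 stood at 0.605 and 0.608 against 0.778 and 0.366, with overlap. Cox8b, at 1.10 and 0.387 against 1.02 and 0.0573 (0.86, SE 0.90), and Cox6b2, at 1.91 and 0.972 against 2.98 and 0.682 (-0.08, SE 0.63), were higher in replicate 1 of both groups. Cox7b2, at 0.765 and 0.472 against 0.845 and 0.267, followed the same order by replicate number. So did the summed ependymal or choroid plexus markers given above, whose part was not tested. Cox8c, known from testis, was listed at 0 in AnnexinV-positive 1, with 4, 16 and 7 reads in the other libraries.

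**Figure D3:**
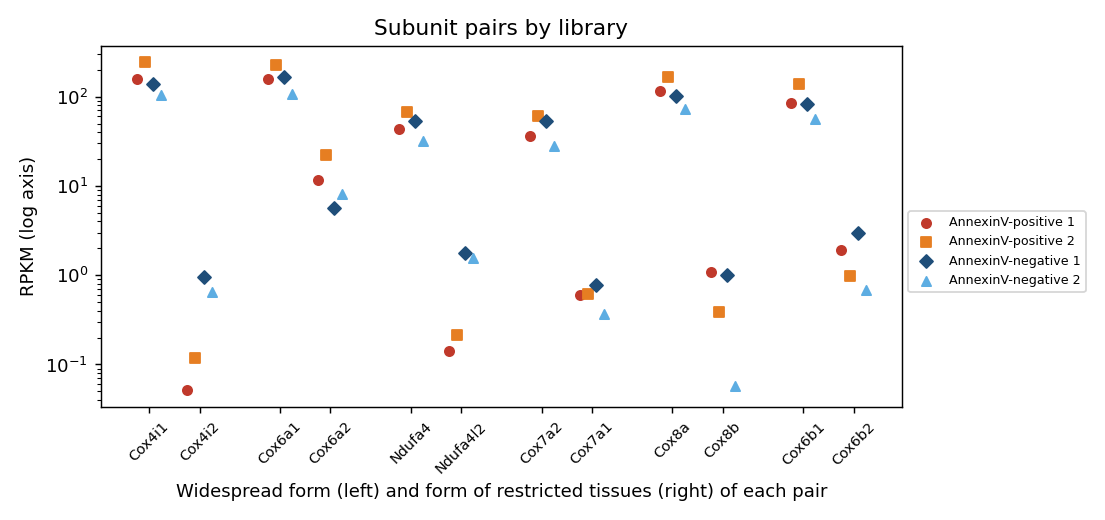
RPKM (log axis) of 6 widely expressed subunits, each with its form of restricted tissues to the right, in each of the 4 libraries. Cox4i2 and Ndufa4l2 are lower in both AnnexinV-positive libraries; Cox8b and Cox6b2 are higher in replicate 1 of both groups; Cox6a2 is higher in both AnnexinV-positive libraries on this deposited scale but level (0.00) when centred on microglia markers.

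Of 3 nuclear members that match by symbol but belong to no complex, Ndufa4l2 and Cox7a2l were called. Ndufa4l2 (chr10:127514967-127517154), the paralogue of Ndufa4 that hypoxia is known to induce and that pericytes express, was at 0.141 and 0.211, from 15 and 20 reads, against 1.76 and 1.57, from 231 and 166 reads. Its log2 fold change was -2.68 (SE 0.32, limma adjusted p 0.00226). This fall also passed on the centred (-3.11) and TPM (-3.89) scales and when centred on microglia markers (-3.92), and it ranged from -2.87 to -2.50 with any 1 library left out. Ndufa4l2 met the RPKM minimum only in the AnnexinV-negative libraries, so it came to be tested only through the group where it was higher. Inside each library the ratio of Ndufa4l2 to Ndufa4 was 0.00327 and 0.00312 against 0.0327 and 0.0497. It shares 32 exon bases with Shmt2. Of the 7 mural cell markers 4 of 5 tested fell with it, Vtn, Pdgfrb, Rgs5 and Kcnj8, with log2 fold changes of -4.55 to -3.0, and the marker sum was 13.7 and 14.8 against 45.5 and 56.7. Cspg4 made up most of that sum in AnnexinV-positive cells, at 10.1 and 12.03 against 5.06 and 11.1. Pdgfrb, Rgs5 and Kcnj8 met the RPKM minimum only in AnnexinV-negative libraries. Of the markers not tested, Anpep was higher in both AnnexinV-positive libraries, at 0.788 and 0.520 against 0.395 and 0.302. Abcc9 was lower, at 0.204 and 0.0902 against 0.489 and 1.48. The part of mural cells in the levels of Ndufa4l2 and Cox4i2 was not tested.

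Cox7a2l, which joins complexes III and IV into supercomplexes (chr17:83501918-83517330), was at 11.1 and 16.7 against 7.11 and 7.56, without overlap (0.88, SE 0.23, limma adjusted p 0.0249; 0.11 on the TPM scale and -0.35 when centred on microglia markers). It was named after its values were seen. A processed pseudogene, Gm6969, held part of its coding sequence, of which 50.5% occurred in other transcripts. Atp5s, a factor that is no subunit of the synthase, was at -0.05 (SE 0.29).

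Complex V, the ATP synthase, had 16 nuclear members, of which 14 were tested and 0 were called by limma (2 at an unadjusted p under 0.05), with a median of 0.49. The catalytic subunits varied little between libraries. Atp5b, the beta subunit that makes ATP and the most abundant nuclear member, was at 184 and 196 against 161 and 145, without overlap (0.31, SE 0.18, limma adjusted p 0.192). Atp5a1, the alpha subunit, was at 85.6 and 93.2 against 67.6 and 62.7, also without overlap (0.45, SE 0.17, limma adjusted p 0.0745). Atp5e, the small epsilon subunit, was at 57.9 and 115 against 68.5 and 40.3 (0.64, SE 0.38), and Atp5k at 19.4 and 32.8 against 28.3 and 15.1 (0.29, SE 0.36); in both the groups overlapped. The gamma subunit Atp5c1, the rotating shaft, was at 30.4 and 40.05 against 29.99 and 23.1 (0.40, SE 0.22), and Atp5d, the delta subunit beside it, at 40.03 and 54.4 against 38.5 and 29.2 (0.48, SE 0.23). Atp5f1, part of the stalk that holds the catalytic head still, was at 23.5 and 27.7 against 20.6 and 15.5, without overlap (0.51, SE 0.21, limma adjusted p 0.0898). Atp5o, the protein at the top of that stalk, was at 23.4 and 37.7 against 25.1 and 19.3, with overlap. Atp5l had the highest log2 fold change of the complex, 0.77 (SE 0.38), at only 1.13 and 1.94 against 1.13 and 0.607, and 100% of its coding sequence occurred in other annotated transcripts.

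Subunit c, which forms the rotating ring of the synthase, is encoded by 3 genes whose mature proteins are known to be the same. Atp5g3 was at 74.2 and 102 against 77.4 and 49.2 (0.50, SE 0.27), with overlap. Atp5g1 was at 0.677 and 0.634 against 0.769 and 0.479, and Atp5g2 at 0.595 and 0.795 against 0.740 and 0.268, both below the RPKM minimum. The 3 genes differ in DNA: over the 225 bases of the mature subunit, Atp5g2 differed from Atp5g1 at 34 and Atp5g3 at 45. Of the coding sequence of Atp5g1 99.7%, and of Atp5g2 99.2%, occurred in other annotated transcripts, against 0% for Atp5g3. A window of 90 bases is shown because it was identical between Atp5g1 and the processed pseudogene Gm10039 and between Atp5g2 and Gm10175. The windows are from GENCODE vM21 transcripts and span an intron in the genome (Atp5g1 chr11:96073182-96073575, Atp5g2 chr15:102663092-102665106 and Atp5g3 chr2:73908671-73909236, all minus strand, GRCm38); capitals mark the 18 bases in each lower line that differ from Atp5g1.
Atp5g1: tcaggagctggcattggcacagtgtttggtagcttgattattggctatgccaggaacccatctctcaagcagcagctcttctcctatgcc
Atp5g2: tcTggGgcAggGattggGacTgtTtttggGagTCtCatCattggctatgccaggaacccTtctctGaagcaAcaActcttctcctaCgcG
Atp5g3: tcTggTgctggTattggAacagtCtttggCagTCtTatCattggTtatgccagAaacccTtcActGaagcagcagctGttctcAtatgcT
The same held across the nuclear members as a description: 16 that share at least 40% of their coding sequence with other transcripts had a median RPKM of 5.81, and 44 that share under 1% had a median of 30.9. Their median log2 fold changes were 0.44 and 0.45.

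Compared inside each library, complex I stood lower against complex IV in AnnexinV-positive cells. This measure, the median over a complex of each tested nuclear gene's log2 deviation from its mean over the 4 libraries, minus that of complex IV, does not depend on how a library is scaled. For complex I it was -0.12 and -0.08 in AnnexinV-positive and 0.10 and 0.08 in AnnexinV-negative cells, with no overlap. The summed RPKM of nuclear complex I over that of complex IV was 1.06 and 1.03 against 1.22 and 1.16, also apart. Within complex I, the measure was apart only for the 28 accessory subunits (-0.13 and -0.04 against 0.10 and 0.07). For the 7 nuclear core subunits the groups overlapped, at -0.0 and -0.26 against -0.03 and 0.26. Between the group means the measure differed by -0.24 for the core and -0.17 for the accessory subunits. The core subunits thus did not stand closer to complex IV, but spread more within a group. For complex II the measure was 0.15 and -0.16 against -0.19 and 0.19, for complex III -0.03 and 0.08 against -0.04 and 0.09, and for complex V 0.01 and -0.03 against -0.07 and 0.03. In these 3 complexes the groups overlapped. On the TPM scale the median log2 fold changes of complexes I to V turned to -0.43, -0.34, -0.34, -0.26 and -0.29. As medians of log2 fold changes on any of these scales, complex I was 0.17 below complex IV (-0.17), and complexes II, III and V were at -0.08, -0.07 and -0.03. These differences are described and were not tested; an exact permutation test of 2 against 2 libraries cannot give a p below 0.33.

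The 7 well-read mitochondrial genes stood higher against complex IV, at 0.24 and 0.05 against -0.05 and -0.24, without overlap. Within complex I, the summed RPKM of its 5 well-read mitochondrial subunits over that of its nuclear subunits was 0.937 and 0.811 against 0.657 and 0.606, so the 2 genomes' shares were apart between the groups. For complex IV the ratio of mt-Co1 to the summed nuclear subunits was 0.318 and 0.261 against 0.307 and 0.325, and for complex III that of mt-Cytb was 1.45 and 1.16 against 1.51 and 1.29, both with overlap.

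**Figure D4:**
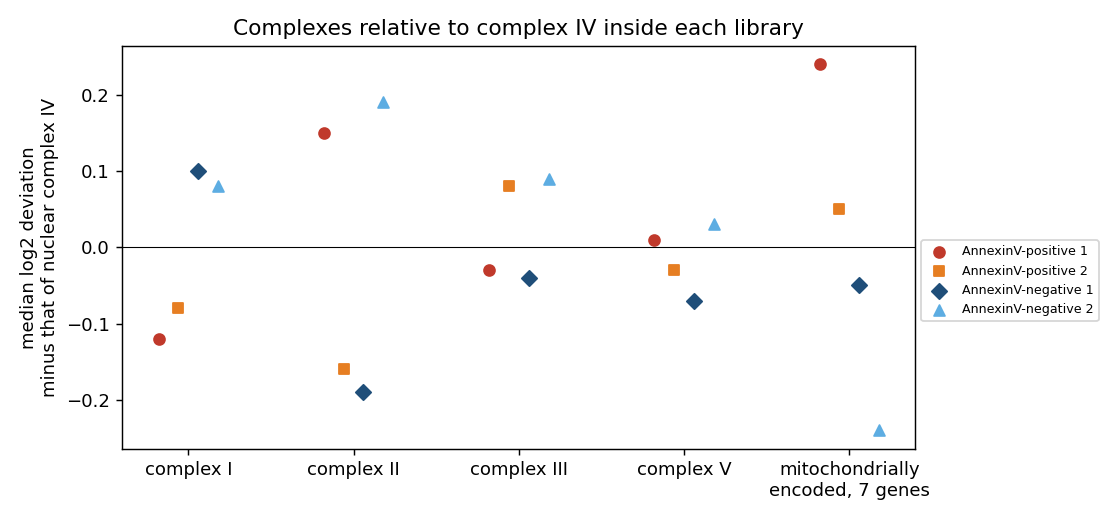
For each library, the median log2 deviation of a complex's tested genes minus that of nuclear complex IV (vertical axis, no unit), for nuclear complexes I, II, III and V and for the 7 well-read mitochondrially encoded genes. Complex I lies at -0.12 and -0.08 in AnnexinV-positive and at 0.10 and 0.08 in AnnexinV-negative libraries; complexes II, III and V overlap.

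Between the 2 libraries of a group nearly all members differed in the same direction. In AnnexinV-positive replicate 2, 84 of 89 tested members (94.4%) were higher than in replicate 1, with a median log2 difference of 0.52, where 55.5% of all genes were and the median was 0.05. In AnnexinV-negative replicate 1, 85 of 89 (95.5%) were higher than in replicate 2, by a median of 0.65, against 48.6% and -0.01. Of all genes tested, the 2186 with the least exon length followed the same pattern in part (81.1% and 82.9%), while the 2184 with the most went the other way (30.8% and 23.0%). Across the 10916 tested genes with a length, Pearson's r of log2 exon length with the log2 difference was -0.41 in the AnnexinV-positive and -0.57 in the AnnexinV-negative pair; it was -0.10 and -0.39 over the 78 tested nuclear members. Genes are not independent, and these values only describe the libraries. The exceptions included Ndufs1 and Sdha, each level within both pairs, and Cox6b2 and Cox8b, which were higher in replicate 1 of both groups. What sets these libraries apart was not tested.

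**Figure D5:**
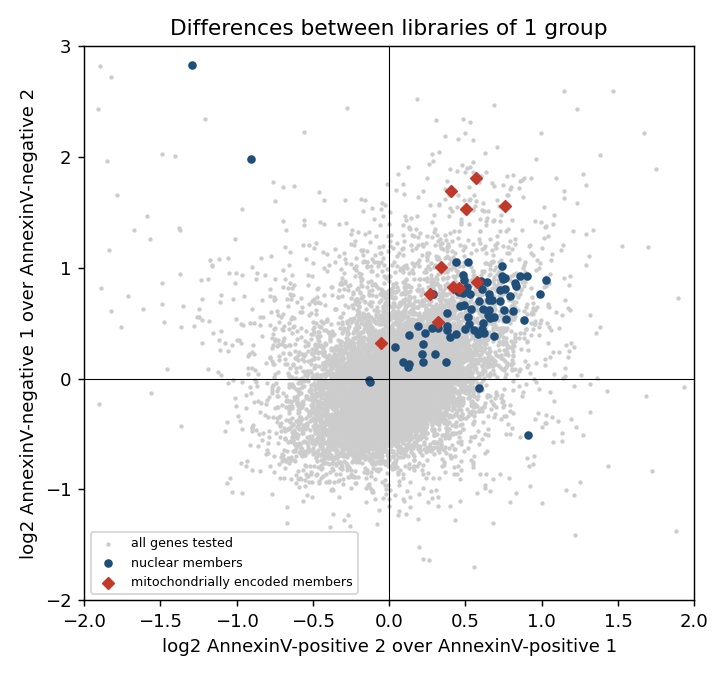
Each point is a tested gene, with the log2 ratio of AnnexinV-positive replicate 2 over 1 on the horizontal and of AnnexinV-negative replicate 1 over 2 on the vertical axis, on log2(RPKM + 0.1); 39 of 10927 genes, and 0 members, lie outside the axes. Nearly all nuclear members (dots) and mitochondrially encoded members (diamonds) lie in the upper right, where both ratios are above 0.

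The number of members called varied with the library left out. Leaving out AnnexinV-positive 1 or 2 gave 10 or 0 higher nuclear members, and leaving out AnnexinV-negative 1 or 2 gave 33 or 2. For the mitochondrially encoded members the counts were 2 and 0, and 11 and 0. Over all genes the same 4 fits called 1749, 1297, 3135 and 3356 higher. All 7 members called higher lost the call without AnnexinV-positive 2 (limma adjusted p 0.102 to 0.245). Without AnnexinV-negative 2, mt-Nd5, mt-Nd6, Ndufa1, Sdhd and Uqcrb lost it, and without AnnexinV-positive 1, mt-Nd5 and Sdhd did. Without AnnexinV-negative 1 all 7 kept it, and Ndufa4l2 was lower in all 4 fits.

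Promoter sequence was compared because the nuclear members moved together between libraries. RefSeq promoters (GRCm38.p6) matched 66 of the 84 nuclear members, and the 250 bases before the start of transcription were searched on both strands. Those without an entry included Ndufa2, Ndufb9, Ndufs1, Sdhc, Uqcrb, Uqcrc2, Uqcrq, Cox4i1, Cox4i2, Cox6a2, Cox6c, Cox8c, Atp5a1, Atp5f1, Atp5mpl, Atp5s and Ndufa4l2. The palindromic motif of NRF1, a factor known to act on respiratory genes, was found in 13 of 66 (19.7%) and in 4.23% of all 27025 genes with a promoter. A gene was counted if any of its promoters held a match. The 27025 genes include many that were not tested here, and no share was taken over genes of like expression. The ETS motif CCGGAAGT, known for the factor GABP, was found in 4.55% against 3.23%, the YY1 motif in 1.52% against 0.359%, the ERR motif TCAAGGTCA in 1.52% against 0.422%, and the hypoxia element ACGTG in 19.7% against 18.5%. None of these motifs contains another. A match is a run of letters, not a site shown to be bound. The 3 most expressed members with an NRF1 match were Cox6a1 (chr5:115348959-115349208), Sdha (chr13:74350241-74350490) and Sdhd (chr9:50603850-50604099), all on the minus strand. Their upstream sequences follow, with matches to the NRF1 motif on either strand in capitals.
Cox6a1: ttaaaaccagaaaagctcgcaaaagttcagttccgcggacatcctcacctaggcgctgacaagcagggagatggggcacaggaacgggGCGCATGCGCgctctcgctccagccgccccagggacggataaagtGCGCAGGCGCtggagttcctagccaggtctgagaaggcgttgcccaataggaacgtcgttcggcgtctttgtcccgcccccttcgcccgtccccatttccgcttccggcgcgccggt
Sdha: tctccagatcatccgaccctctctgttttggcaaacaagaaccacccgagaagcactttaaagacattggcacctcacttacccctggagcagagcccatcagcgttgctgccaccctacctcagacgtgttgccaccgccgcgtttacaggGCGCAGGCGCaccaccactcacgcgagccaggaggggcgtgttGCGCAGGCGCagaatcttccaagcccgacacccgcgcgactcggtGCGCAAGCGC
Sdhd: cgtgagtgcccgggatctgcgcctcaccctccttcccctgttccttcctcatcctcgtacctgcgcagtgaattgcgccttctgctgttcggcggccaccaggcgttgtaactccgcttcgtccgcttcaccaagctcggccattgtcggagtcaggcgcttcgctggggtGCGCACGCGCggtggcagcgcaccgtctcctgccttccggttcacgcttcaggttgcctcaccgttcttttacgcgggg
Sdha held 3 matches and was level within both pairs of libraries, while Cox6a1 differed within both. These genes also differ in exon length, at 4126 bases for Sdha and 702 for Cox6a1. The part of NRF1 in the differences between libraries was not tested.

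Genes that build, supply or feed the complexes were counted by list, beside the 40% of all genes that were called and their median of 0.45. On the TPM scale 19.1% of all genes were lower and 1.03% higher, with a median of -0.32. The TPM calls below stand beside those shares. Of 15 tested assembly factors of complex IV, 2 were higher and 0 lower, with a median log2 fold change of 0.30. Higd2a, a factor of supercomplex assembly, was at 60.2 and 79.1 against 47.2 and 33.7 (0.79, SE 0.24, limma adjusted p 0.0360), and Coa5 rose by 0.74. Pet100, at 5.68 and 9.15 against 5.21 and 2.78, did not pass (0.90, SE 0.35, limma adjusted p 0.0766). On the TPM scale Taco1 (-1.11) and Surf1 (-0.99) were lower. Of 9 tested genes that bring copper to complex IV, 2 were higher. Slc31a1, the copper importer of the cell surface, was at 17.0 and 13.8 against 7.13 and 8.86 (0.94, SE 0.21, limma adjusted p 0.0133), and Slc25a3, which carries copper and phosphate into mitochondria, was at 50.4 and 60.7 against 33.7 and 31.5 (0.76, SE 0.18, limma adjusted p 0.0182). On the TPM scale Slc31a1 was at 0.17, Higd2a at 0.01, Slc25a3 at -0.02 and Coa5 at -0.03, and none passed. Sco1, a copper chaperone of the complex, went the other way, at 1.02 and 1.36 against 1.78 and 2.01. It did not pass on the deposited scale (-0.64, SE 0.25, limma adjusted p 0.0800), but was lower on the centred (-1.06, limma adjusted p 0.0264) and TPM scales (-1.44, limma adjusted p 0.00878), and the chaperones Cox11 (-1.26) and Cox19 (-1.03) were lower on the TPM scale too.

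None of the assembly factors of the other complexes was called on the deposited scale, among 16 tested for complex I, 3 for complex II, 5 for complex III and 3 for complex V, with medians of 0.24, 0.19, 0.37 and 0.12. At an unadjusted limma p under 0.05, 2 complex I factors were higher and 0 factors of complexes II, III and V were. Those with the smallest p among complex I factors were Ndufaf6 (log2 fold change 0.61, limma adjusted p 0.0804), Ndufaf7 (0.48) and Ndufaf3 (0.52), each with both AnnexinV-positive libraries on top. For complex II they were Sdhaf4 (0.74, limma adjusted p 0.103), Sdhaf2 (0.19) and Sdhaf1 (-0.27), for complex III Uqcc3 (0.52, limma adjusted p 0.179), Ttc19 (0.37) and Uqcc1 (0.24), and for complex V Tmem242 (0.37, limma adjusted p 0.220), Fmc1 (-0.37) and Atpaf2 (0.12). On the TPM scale 4 of the complex I factors were lower, Ecsit (-1.18), Tmem186 (-1.13), Ndufaf4 (-0.93) and Tmem126b (-0.78). Of 19 electron carriers and carriers of the inner membrane, 4 were higher. Ucp2, an uncoupling protein of immune cells, rose most among these, from 47.3 and 57.3 to 123 and 141 (1.33, SE 0.19, limma adjusted p 0.00377), and it passed on the centred scale (0.91, limma adjusted p 0.0159) but not on the TPM scale (0.56, limma adjusted p 0.0749). The oxoglutarate carrier Slc25a11 (0.89), the ADP/ATP carrier Slc25a5 (0.88) and the flavoprotein Etfa (0.63) also rose on the deposited scale, while on the TPM scale Slc25a12 (-1.12) and Coq6 (-1.08) were lower. Of 20 genes of mitochondrial DNA expression and biogenesis, 3 were higher, the GABP subunit Gabpb1 (0.83), the receptor Esrra (0.71) and the elongation factor Tefm (0.84). Tfam, which packages mitochondrial DNA, was at 0.26 and the mitochondrial polymerase Polrmt at -0.24, and neither passed, but Polrmt was lower on the TPM scale (-1.02). In the TCA cycle, 4 of 18 were higher, Suclg2 (1.12), Idh2 (0.98), Idh3g (0.75) and Dlst (0.68), and on the TPM scale 4 were lower, Pdhx (-1.11), Pdha1 (-0.72), Dlat (-0.70) and Cs (-0.69). No list had a lower call on the deposited scale, while on the TPM scale 0 genes of any list were higher (1 at an unadjusted limma p under 0.05, among the carriers). The microglia markers rose by a median of 1.24, more than the median of any of these lists (0.12 to 0.37). The part of microglia in the levels of these genes was not tested.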

How the data were processed

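Bulk RNA-seq of 4 libraries was analysed, with the group and replicate number taken from each title. The TruSeq RNA v2 kit named in the labels' protocols keeps no strand, so reads of overlapping or antisense genes cannot be told apart. GSNAP was the aligner and mm10 the build, per the submitters' processing notes; the counter, the annotation and the filters on reads were not given in the sources used here. The authors deposited 1 value per gene under a header without a unit. The deposited values were read as RPKM, which the authors had scaled by the depth of each library before deposit. Which reads they took as depth, and whether they scaled the RPKM further, is not given in the sources used here. As deposited, the RPKM summed over all genes to 200348 and 217768 in AnnexinV-positive 1 and 2. The sums were 122944 and 120680 in AnnexinV-negative 1 and 2. The unit was inferred because low values are multiples of a step that falls with exon length. Of values worth under 100 reads, 79.7% to 83.7% were whole within 0.01 of a read. Reads in genes were recovered from those steps, at 67.4, 60.1, 50.5 and 43.2 M in AnnexinV-positive 1 and 2 and AnnexinV-negative 1 and 2. Values that were not whole may reflect other exon lengths, so these read numbers are estimates. In the same order, 1 read in 1 kb was worth 0.0101, 0.0116, 0.00833 and 0.0103. If the RPKM was not scaled further, a smaller step means a larger depth. AnnexinV-negative 1 would then have the largest depth, but it had fewer reads in genes than either AnnexinV-positive library. The part of this in the shift between groups was not tested.

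Symbols came from GENCODE vM21 (52403 of 52636 IDs matched). Tests used log2(RPKM + 0.1) and limma 3.58.1 in R 4.3.3 (trend, Benjamini-Hochberg over 10927 genes, called under 0.05), where at least 2 libraries had an RPKM of 1 or more. Fold changes are on that scale, which understates those of low genes. The limma step was tested on simulated data with independent noise of the same size for every gene. Those data held no difference shared by many genes of a library, such as the one seen here. The members and all lists were chosen with earlier results of these data known. Named were all mitochondrially encoded members, the 4 Sdh genes, in each other nuclear complex the 3 most expressed members and the 2 with the largest rise and fall, the forms of restricted tissues with their partners, and the 3 genes with the smallest p in each related list. Others named to give a small count in full, or for a part they play in a complex, were chosen after their values were seen. Shared sequence was the share of a gene's coding 50-base steps found on either strand in transcripts of other GENCODE genes. The values of 1 nuclear member of complex I, which stays in all counts and medians, are not reported here.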

Additional observations from a re-analysis of the deposited data

How the results depend on the processing

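The scale of the libraries set most calls, and the number of libraries limits them all. Among all genes, 3364 were higher and 1012 lower on the deposited scale. The counts were 1865 and 2489 without the filter on low values and 113 and 2091 on the TPM scale (113 and 2102 with the mitochondrially encoded genes left out of the sum). They were 11 and 5587 with libraries centred on microglia markers, and 713 were higher on the centred scale, which was chosen after seeing the data, and 1133 when libraries were centred on the median level. In place of 5 nuclear members higher, 0 were without the filter and on each of these 5 other scales, 2 without limma's trend, and 3 with the replicate number as a block. In place of 1 lower, 2 were without the filter, 3 on both TPM scales and 15 when centred on microglia markers. In place of 2 mitochondrially encoded members higher, 0 were without the filter and on each of the 5 other scales, and 3 with the replicate block. The log2 deviations of same-numbered libraries correlated at -0.21 across genes, and the crossed pairing, chosen after seeing the data, called 41 nuclear and 5 mitochondrially encoded members and 4891 of all genes higher. The numbers were not stated to pair the libraries.

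With 1 library left out at a time, between 1297 and 3356 genes, 0 and 33 nuclear members, and 0 and 11 mitochondrially encoded members were higher. Between 787 and 1060 genes and 1 and 2 nuclear members were lower. An arm with 1 library is then assumed to vary like the other group. The difference of complex I from complex IV (-0.17) ranged from -0.22 to -0.14 in those fits. It was -0.14 with a pseudocount of 1 and -0.21 with complexes assigned by symbol alone. The difference of complex II ranged from -0.27 to 0.16, that of complex III from -0.20 to 0.06 and that of complex V from -0.15 to 0.07, so these have no settled direction.

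Of the 83 members above 0 as deposited, 72 lay below 0 on the TPM scale and 82 when centred on microglia markers, and most of them passed the test on neither scale. Of the genes chosen by the naming rule, with Ndufs1 and Cox7a2l, that passed as deposited or on the other scale, the log2 fold changes that turned below 0 on both TPM scales were -0.07 for mt-Nd5, -0.73 (-0.74 without mitochondrially encoded genes) for Ndufs1, -0.17 for Sdhd, -0.03 (-0.04) for Coa5, -0.02 for Slc25a3, -0.05 for Esrra and -0.09 for Dlst. Those that turned when centred on microglia markers were -0.53 for mt-Nd5, -0.19 for mt-Nd6, -0.29 for Ndufa1, -1.19 for Ndufs1, -0.87 for Sdha, -0.62 for Sdhd, -0.40 for Uqcrb, -0.79 for Uqcrc1, -1.0 for Uqcrc2, -0.78 for Atp5a1, -0.92 for Atp5b and -0.35 for Cox7a2l. Among related genes they were -1.04 for Sdhaf2, -0.86 for Ttc19, -0.99 for Uqcc1, -0.44 for Higd2a, -0.49 for Coa5, -0.29 for Slc31a1, -0.47 for Slc25a3, -1.12 for Atpaf2, -0.34 for Slc25a11, -0.35 for Slc25a5, -0.40 for Gabpb1, -0.52 for Esrra, -0.39 for Tefm, -0.25 for Idh2, -0.11 for Suclg2 and -0.55 for Dlst. Which scale fits these cells was not tested. Ndufa4l2 stayed lower in each alternative run, but it met the RPKM minimum only through its AnnexinV-negative values.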
